A study of Homo sapiens with 4 samples.

Results

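Lu139 and NCI-H209 are established human small cell lung cancer lines, and the comparison set both arrays of Lu139 against both arrays of NCI-H209, which are all 4 arrays of the series. Cells of each line, grown under the standard conditions for that line, received by electroporation either a control siRNA with no target (siNTC) or one directed at TTF-1 (siTTF-1), a homeodomain factor of lung and thyroid whose gene is NKX2-1. Each combination of line and siRNA was read on 1 Affymetrix array, and the lines were compared within an siRNA, the siNTC pair and the siTTF-1 pair. The series was built to follow TTF-1, so the difference between the lines is a comparison that its design allows rather than its stated subject. Each line is 1 cell culture model, no label says that its 2 arrays came from separate cultures, and line and any handling that went by line cannot be told apart.

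Small cell lung cancer is a neuroendocrine tumour whose lines are usually sorted by the transcription factor that drives them and by which MYC family member they express. Most keep an epithelial character, with E-cadherin and simple keratins, beside a secretory and neuron-like program. Loss of the retinoblastoma protein RB1 is a hallmark of the disease, and INSM1 and chromogranin are its usual diagnostic markers.

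Both lines carried the neuroendocrine markers. INSM1, a zinc finger factor of neuroendocrine cells, had normalized intensities of 8204 (siNTC) and 6467 (siTTF-1) in NCI-H209 against 5611 and 5490 in Lu139, an order of siRNAs kept in the pairs of values that follow. Chromogranin A (CHGA) was read at 2951 and 3321 in NCI-H209 against 2325 and 2832 in Lu139. Lu139 was the lower line for both, by log2 differences of -0.39 (SE 0.080) for INSM1 and -0.28 (SE 0.078) for CHGA, which are small beside those described below. Other subtype-defining factors are not analysed here. POU2F3, the factor of the tuft cell-like subtype, was read at 7.22 to 11.9 on the 4 arrays and YAP1 at 11.96 to 24.3, both under the expression limit of 37.0 and not tested. Markers of other cell types were low beside INSM1 and CHGA, but many passed the expression limit. On an array these were 5 or 6 of 11 immune, 4 to 6 of 9 endothelial and 4 to 6 of 11 fibroblast markers. The highest fibroblast marker in NCI-H209 was COL1A1, at 219 and 261. Summed over 11 markers, the immune list reached 387 and 403 in NCI-H209 against 420 and 460 in Lu139, and the 9 endothelial markers reached 424 to 510 over the 4 arrays. The 11 fibroblast markers summed to 636 and 698 in NCI-H209 against 1380 and 1586 in Lu139, where THY1, which neurons also express, made up 640 and 740. The part of these markers in the mesenchymal differences below was not tested.

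The lines differed at most genes tested. Differences are Lu139 minus NCI-H209 on the log2(intensity + 18.7) scale after quantile normalization, which understates the change of dim genes. At a Benjamini-Hochberg adjusted limma p under 0.05, 5336 of 14545 genes tested were higher in Lu139 (36.7%) and 4771 were lower (32.8%), 69.5% in all. The median absolute difference between the lines was 0.45 in the siNTC pair and 0.47 in the siTTF-1 pair, against 0.13 between the siRNAs within NCI-H209 and 0.11 within Lu139. The siRNA pairs gave the same direction for 89.7% of genes tested. With so many calls, membership among them says little, so the account turns on large differences, meaning a called gene with at least a 4-fold difference (2 on the log2 scale) in the same direction in both pairs. There were 274 large genes higher in Lu139 (1.88%) and 446 lower (3.07%), 4.95% in all. The limma p-values rest on how far the siNTC and siTTF-1 pair differences of a gene disagree, with spread borrowed across genes. They do not measure the spread between separate cultures of a line. An exact permutation of 2 arrays against 2 cannot go below p = 0.333.

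The balance of higher and lower depended on the scaling. Higher genes were 52.8% of calls after quantile normalization, 41.3% with each array scaled to the same median (4138 higher, 5887 lower) and 26.6% on the deposited values (2727 higher, 7527 lower), where the median of all genes moved from 0.04 to -0.28. Large counts were 234 higher and 540 lower with median scaling and 190 and 691 on the deposited values. A 2-fold threshold in both pairs took 8.85% of genes as higher and 10.6% as lower, and an 8-fold threshold 0.681% and 1.2%. Large under all 3 scalings were 190 higher and 446 lower genes, so each large gene lower in Lu139 stayed so. Median scaling (median of all genes -0.085) and the deposited values (-0.28) both moved genes towards lower in Lu139. These counts therefore cannot show that the lower genes are the more robust. List counts below are those after quantile normalization unless the deposited values are named. Counts on the deposited values are to be read against their base, 2727 higher and 7527 lower of 14547 genes tested. Over the alternatives, the median relative to all genes changed sign for the mesenchymal, neuroendocrine secretory, DNA replication, glycolysis, receptor tyrosine kinase, TTF-1 target, cancer-testis, fibroblast and endothelial lists. Leaving out an array also takes the siRNA term out of the model. Without the Lu139 siTTF-1 array 3403 genes were higher in Lu139, against 4594 in a fit of that form on all 4 arrays.

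**Figure D1:**
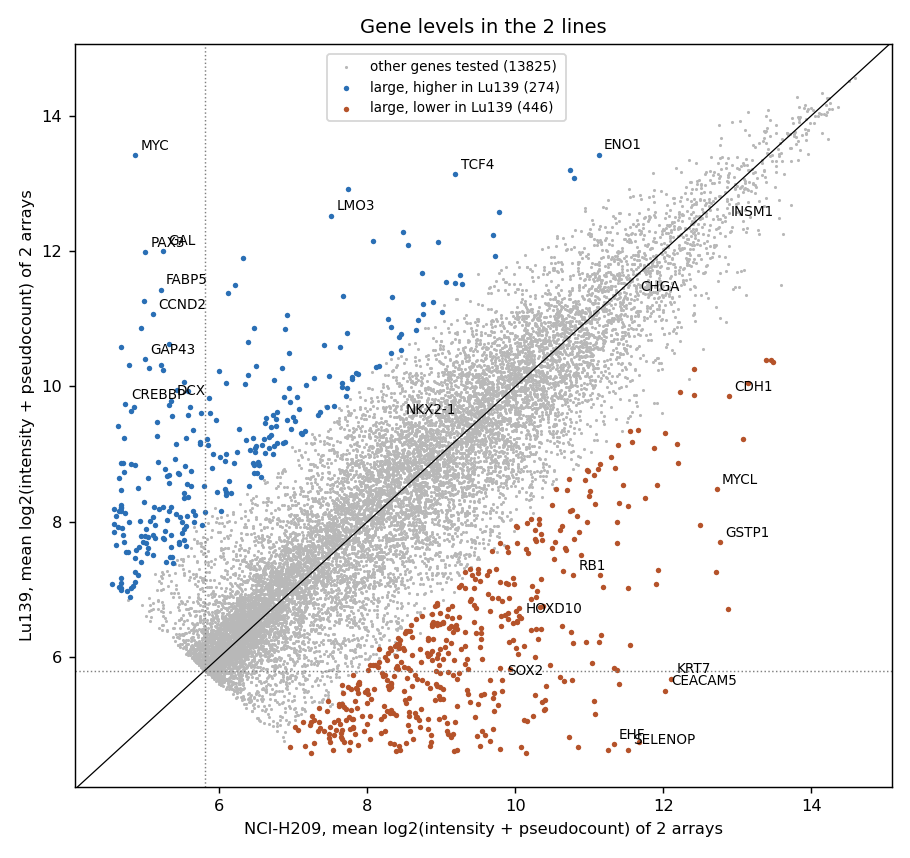
Each point is 1 of 14545 genes tested, with its mean log2(intensity + 18.7) over the 2 arrays of NCI-H209 on the horizontal axis and of Lu139 on the vertical axis. The solid line marks equal levels, the dotted lines the expression limit of 5.80, and the 274 and 446 large genes are coloured. MYC sits at the upper left, near the bottom of the NCI-H209 range, and SELENOP and EHF at the lower right.

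**Figure D2:**
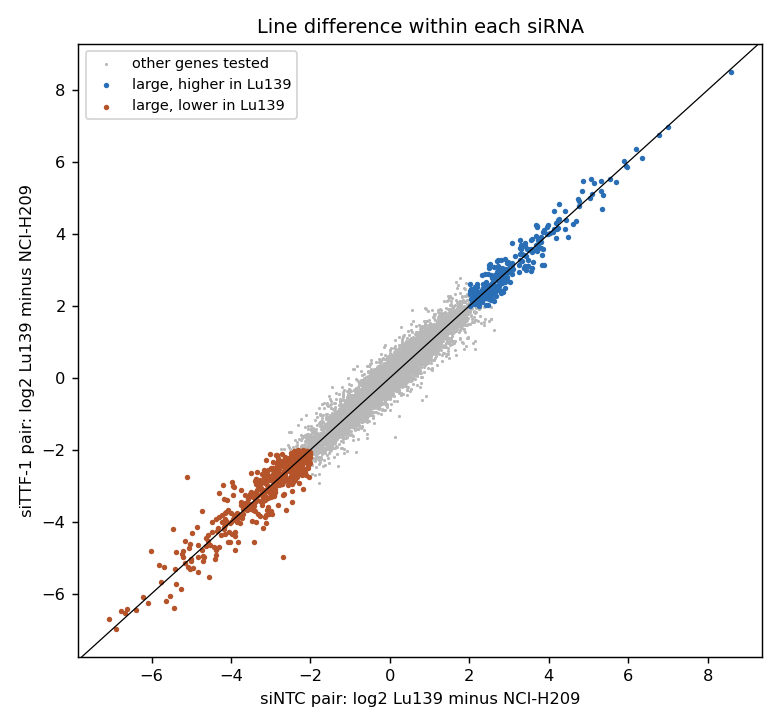
The log2 difference between the lines is plotted for each gene tested, in the siNTC pair on the horizontal axis and in the siTTF-1 pair on the vertical axis, with the line of equality. Points lie along the line (Pearson r = 0.97 across 14545 genes, which are not independent replicates), and large genes form both ends.

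MYC gave the largest difference of all genes tested. Its intensity was 9.89 and 10.9 in NCI-H209 against 11050 and 10730 in Lu139, a difference of 8.55 (SE 0.103, limma adjusted p = 2.88e-09). The order was the opposite for MYCL, the family member first found in small cell lung cancer, which was read at 7250 and 6247 in NCI-H209 against 308 and 372 in Lu139 (-4.24, SE 0.120, limma adjusted p = 2.46e-08). NCI-H209 was therefore high for MYCL with MYC under the expression limit, and Lu139 high for MYC with MYCL lower but above it. MYCN, the third member, was dim in both lines at 43.8 to 67.0, and its direction changed with the probe set used. MYC was read by 1 probe set and MYCL by 2, which gave the same direction.

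Of 39 subtype regulators tested, 15 were higher (38.5%, near the 36.7% of all genes) and 18 lower in Lu139 (46.2%, against 32.8%). Large were 2 higher (5.13%, against 1.88%) and 3 lower (7.69%, against 3.07%). SOX2, a stem and neuroendocrine progenitor factor, had 1049 and 740 in NCI-H209 against 32.3 and 31.2 in Lu139 (-4.16). NKX2-2, a homeodomain factor of neural and endocrine tissue, had 404 and 319 in NCI-H209 against 12.97 and 20.02 in Lu139 (-3.43). TCF4, an E protein that partners with proneural factors, ran the other way at 708 and 449 against 9421 and 8559 (3.95), on all 8 of its probe sets. Smaller differences were those of SOX11 (2.17), the oligodendrocyte and neural factor OLIG2 (1.88), the inhibitor ID3 (1.81) and FOXA1 (1.56), all higher in Lu139, and of FOXA2 (-1.498). NKX2-1, the target of the siRNA, was at 501 and 213 in NCI-H209 against 922 and 554 in Lu139, higher in Lu139 by 1.08 (SE 0.129), with the siTTF-1 array below the siNTC array in each line. The 2 lines did not overlap for NKX2-1, but its siRNA difference within a line was of the same order as the line difference. HES1, a Notch target, was at 97.4 and 89.6 against 101 and 130 and did not pass the test (limma adjusted p = 0.0918).

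Among 54 homeobox genes tested, 20 were higher (37%) and 27 lower (50%), against 36.7% and 32.8% of all genes. The large ones were 2 higher (3.7%) and 10 lower (18.5%), against 1.88% and 3.07%. PAX3, a paired-box factor of neural crest and muscle, was at 13.4 and 13.2 in NCI-H209 against 4107 and 3958 in Lu139 (6.98). LMO3, a LIM-only cofactor, was at 197 and 135 against 6185 and 5567 (5.01). The large lower genes were HOXB2, HOXB6, HOXB8, HOXC6, HOXD1, HOXD8, HOXD10, HOXD11, EYA2 and IRX2, with differences from -2.20 for HOXD1 to -3.61 for HOXD8. HOXB8 was read at 782 and 303 on the arrays of NCI-H209 (siNTC and siTTF-1) and at 31.8 and 24.9 in Lu139.

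The epithelial genes formed the most one-sided group. Of 50 epithelial junction and keratin genes tested, 41 were lower in Lu139, 3 were higher and 6 did not pass, against 32.8% and 36.7% over all genes. The large ones were 16 of the 50 and all were lower, against 3.07% over all genes, and the median was -1.39 (0.04 over all genes). On the deposited values 46 were lower and 2 higher, and the median relative to all genes ranged from -1.59 to -1.03 over the alternatives tried.

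CDH1, which encodes E-cadherin, was read at 7230 and 7889 in NCI-H209 against 832 and 988 in Lu139 (-3.03, SE 0.079, limma adjusted p = 1.81e-08), so it was lower but remained well above the expression limit in Lu139. Keratin 7 (KRT7) was at 4362 and 4443 against 33.1 and 32.0, under the limit in Lu139 (-6.43). KRT19 had 3424 and 4104 against 514 and 535 (-2.79), and the simple keratin pair KRT8 (-1.35) and KRT18 (-1.90) differed less. EHF, an ETS transcription factor of epithelia, had 2661 and 2448 against 7.48 and 7.74 (-6.61), on all 6 probe sets and under the limit in Lu139. GRHL2, a grainyhead factor that sustains CDH1 expression, had 794 and 824 against 12.14 and 12.04 (-4.75), also under the limit there. ELF3, another epithelial ETS factor, had 794 and 1053 against 72.9 and 86.6 (-3.25). Junction and surface genes followed the same order, with desmoplakin (DSP) at -3.36, claudin 4 (CLDN4) at -3.504, the desmosome-associated PERP at -3.86, the serine protease inhibitor SPINT1 at -3.34, the small GTPase RAB25 at -4.90, CEACAM5 at -6.53, CEACAM6 at -3.72 and CEACAM1 at -2.53. RBM47, an RNA-binding protein of epithelia, was also lower (-3.92), but NCI-H209 itself had 1209 and 205. CLDN4 and CEACAM5 were each lower on 1 of their 2 probe sets. EPCAM was nearly level at 11330 and 12260 against 9820 and 9784 (-0.27), and PKP3, a desmosomal plakophilin, was higher in Lu139 (1.505).

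Promoter sequences are shown for 4 of these genes, as the group that moved together most. The 4 were taken from genes that hold the letters marked, so they do not stand for the group. Of the 16 large genes of the list 11 had an entry in the promoter table, and CDH1 did not. They are the 250 bases before the gene's start in RefSeq (GRCh38.p14), 5′ to 3′ on the gene's strand. Capitals mark CAGGTG, the E-box letters that SNAI and ZEB repressors are known to bind, or CACCTG, the same letters on the other strand. RAB25 lies at chr1:156060910-156061159 on the plus strand, ELF3 at chr1:202010337-202010586 on the plus strand, DSP at chr6:7541421-7541670 on the plus strand and CEACAM5 at chr19:41708376-41708625 on the plus strand.
RAB25: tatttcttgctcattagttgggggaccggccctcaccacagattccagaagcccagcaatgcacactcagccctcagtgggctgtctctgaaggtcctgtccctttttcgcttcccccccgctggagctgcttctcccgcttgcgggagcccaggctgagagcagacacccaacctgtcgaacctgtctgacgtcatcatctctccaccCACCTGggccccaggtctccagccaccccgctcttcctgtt
ELF3: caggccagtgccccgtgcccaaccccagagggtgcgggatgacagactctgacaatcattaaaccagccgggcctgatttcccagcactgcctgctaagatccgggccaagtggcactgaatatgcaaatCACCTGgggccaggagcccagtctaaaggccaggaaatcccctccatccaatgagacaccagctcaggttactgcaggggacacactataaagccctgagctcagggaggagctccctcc
DSP: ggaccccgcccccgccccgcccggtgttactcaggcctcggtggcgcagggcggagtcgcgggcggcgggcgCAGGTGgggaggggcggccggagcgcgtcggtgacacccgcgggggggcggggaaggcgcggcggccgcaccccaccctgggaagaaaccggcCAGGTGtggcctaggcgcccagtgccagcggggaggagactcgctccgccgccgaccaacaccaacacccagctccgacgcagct
CEACAM5: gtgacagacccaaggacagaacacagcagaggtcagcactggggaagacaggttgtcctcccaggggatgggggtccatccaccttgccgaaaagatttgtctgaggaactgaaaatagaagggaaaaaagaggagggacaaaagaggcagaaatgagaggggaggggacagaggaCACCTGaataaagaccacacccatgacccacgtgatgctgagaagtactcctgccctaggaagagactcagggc

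CAGGTG on either strand stood in the 250 bases before at least 1 start of 6 of the 11 large epithelial genes in the promoter table (54.5%), the others being SPINT1 and RBM47, against 20.6% of all 27305 genes in the table. Counted by promoter, it stood in 6 of 16 (37.5%), against 17.5% of 35116. It was 1 of 9 motifs searched on both strands in 4 sets of large genes, and was chosen for display after the matches had been seen. Matches of different motifs could overlap in position. The other motifs were AACCNGTT (in 0 of the 11 genes), CACGTG (2), CAGCTG (0), CAGATG (1), TGACTCA (2), GGAAG (9), TATAAA (3) and CAAGTG (2), against 1.85%, 7.73%, 16.7%, 14.6%, 5.19%, 69.3%, 13.0% and 11.6% of all genes. In the other sets CAGGTG stood in 3 of 8 synapse and axon genes, 0 of 6 detoxification genes and 0 of 5 homeobox genes. CACGTG stood in 0 of 8, 0 of 6 and 3 of 5 of them (60% of the homeobox genes, against 7.73% of all genes). These are matches of letters and say nothing of a factor's binding.

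The mesenchymal genes were mixed. Of 36 tested, 16 were higher (44.4%) and 12 lower (33.3%) in Lu139, against 36.7% and 32.8% of all genes. Large were 5 higher (13.9%) and 3 lower (8.33%), against 1.88% and 3.07% of all genes. The E-box repressor SNAI2 was read at 6.89 and 6.48 in NCI-H209 against 558 and 361 in Lu139 (4.20), and TWIST1, a basic helix-loop-helix factor, at 12.22 and 12.04 against 152 and 150 (2.46). The laminin chains LAMA1 (2.85) and LAMB1 (2.99) and the tenascin C gene were the other large higher genes. The difference was smaller for ZEB1, at 78.2 and 84.2 against 241 and 209.2 (1.28), and for vimentin (VIM), at 57.2 and 60.6 against 174 and 152 (1.23), and N-cadherin (CDH2, 1.47). Nidogen (NID1, -3.82), the protease inhibitor TIMP1 (-2.71) and annexin A2 (ANXA2, -2.54) were large and lower. NID1 was uneven within NCI-H209, at 162 and 830. Whether the list as a whole was above or below all genes changed with the alternatives, from -0.12 to 0.22 relative to the median of all genes.

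**Figure D3:**
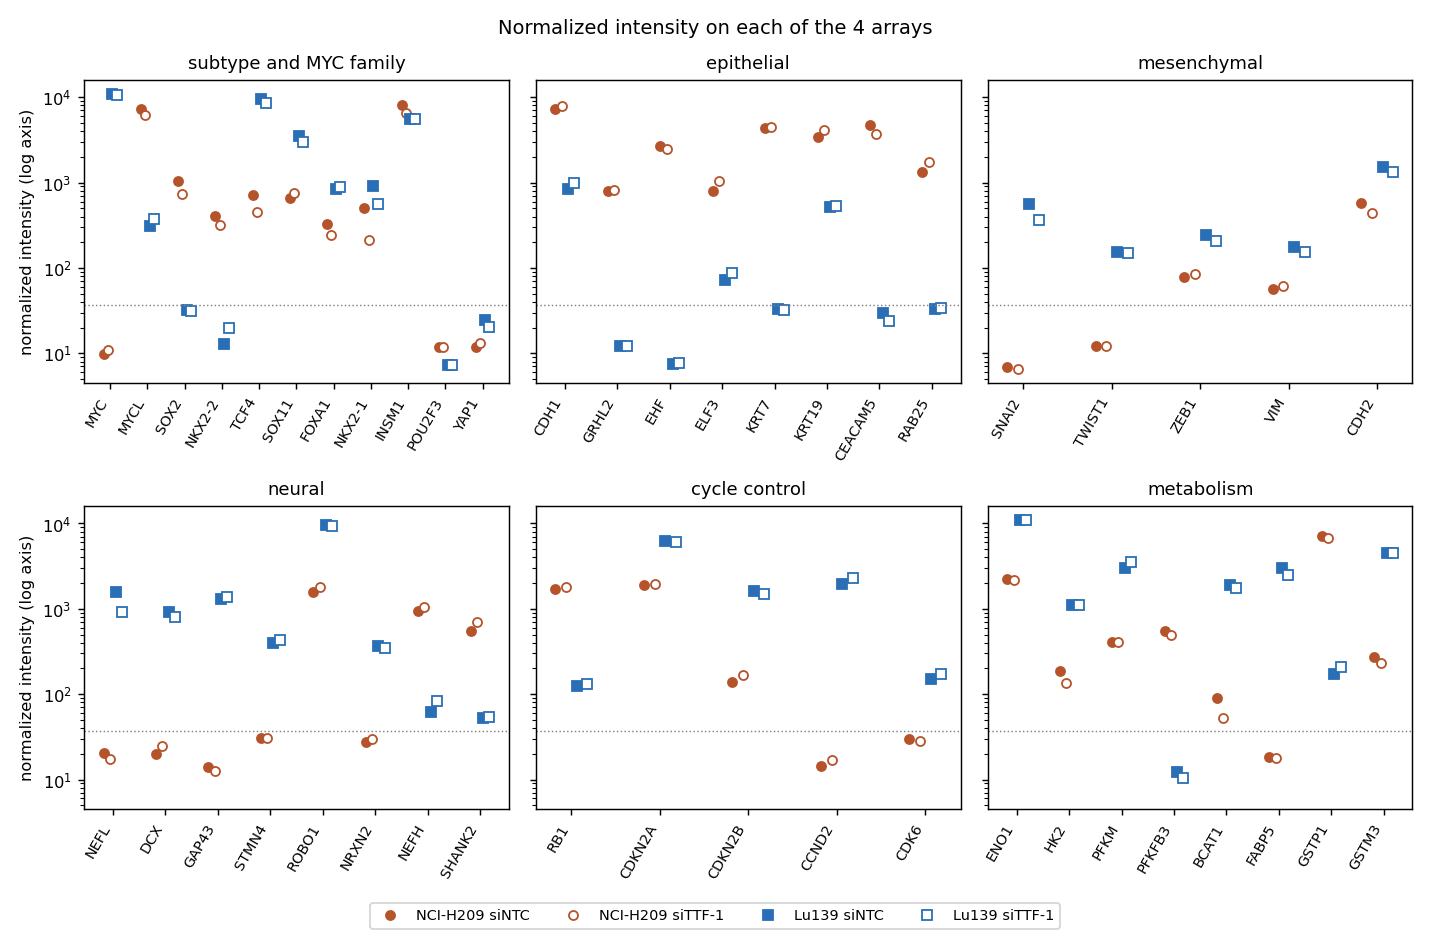
Normalized intensity on each of the 4 arrays, on a log axis, for genes of 6 groups. Circles are NCI-H209, squares Lu139, filled symbols siNTC and open symbols siTTF-1, and the dotted line is the expression limit of 37.0. The arrays of a line lie close together for most genes shown, and MYC and MYCL occupy opposite ends in the lines.

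Neural genes leaned to Lu139. Of 65 synapse and axon genes tested, 39 were higher (60%) and 17 lower (26.2%), with 11 large higher (16.9%) and 3 large lower (4.62%), and the median was 0.39. Over all genes the shares were 36.7%, 32.8%, 1.88% and 3.07%. GAP43, a growth cone protein, was read at 14.1 and 12.5 in NCI-H209 against 1294 and 1375 in Lu139 (5.40). The neurofilament light chain NEFL had 20.5 and 17.6 against 1556 and 920 (5.01). The microtubule protein of migrating neurons DCX had 19.9 and 24.5 against 920 and 813 (4.43). GAP43, NEFL and DCX were thus under the limit in NCI-H209 on both arrays. The neurexins NRXN2 (2.99) and NRXN3 (2.68), the GABA-B receptor subunit GABBR2 (3.09), STMN4 (3.14), the guidance receptor ROBO1 (2.46) and its ligand SLIT2 (2.46), and the vesicle GTPases RAB3A (2.11) and RAB3B (2.30) completed the large higher genes. The neurofilament heavy chain NEFH ran against the light chain, at 932 and 1042 in NCI-H209 against 61.6 and 83.4 in Lu139 (-3.47). The postsynaptic scaffold SHANK2 (-3.15) and the ephrin receptor EPHA7 (-2.21) were also lower. On the deposited values the list held 26 higher and 22 lower genes, with its median still 0.36 above that of all genes.

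Of 44 ion channel genes tested, 22 were higher (50%, against 36.7% of all genes) and 13 lower (29.5%, against 32.8%), and on the deposited values 15 were higher and 17 lower. The sodium channel SCN2A had 117 and 84.7 in NCI-H209 against 1748 and 1897 in Lu139 (3.96), and the potassium channel genes KCNQ5 (3.80), KCNS3 (2.58) and KCNT2 (2.32) were large and higher. The cold-sensing channel TRPM8 had 1581 and 713 against 5.997 and 7.49 (-5.41), and KCNA1 (-4.18) and KCNK9 (-2.38) were large and lower. GRIN3A, an NMDA receptor subunit, and GNG3, a neuronal G protein gamma subunit, were large and higher as well, at 5.25 and 5.29.

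Of 40 secretory genes of neuroendocrine cells tested, 18 were higher (45%, against 36.7% of all genes) and 17 lower (42.5%, against 32.8%), and on the deposited values 13 were higher and 21 lower. Galanin (GAL), a neuropeptide, was at 16.8 and 21.4 in NCI-H209 against 3872 and 4321 in Lu139 (6.77). Somatostatin (SST) was at 20.3 and 22.2 against 391 and 332 (3.25). The trefoil peptide TFF3 ran the other way, at 6139 and 5448 against 230 and 230 (-4.54), as did the calcitonin gene CALCA (-2.37) and secretagogin (SCGN, -2.42). Gastrin-releasing peptide (GRP) was high in both lines, at 7669 and 5231 against 3317 and 4362 (-0.73), while NCAM1 was higher (1.66) and synaptophysin (SYP) did not pass the test (-0.08).

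**Figure D4:**
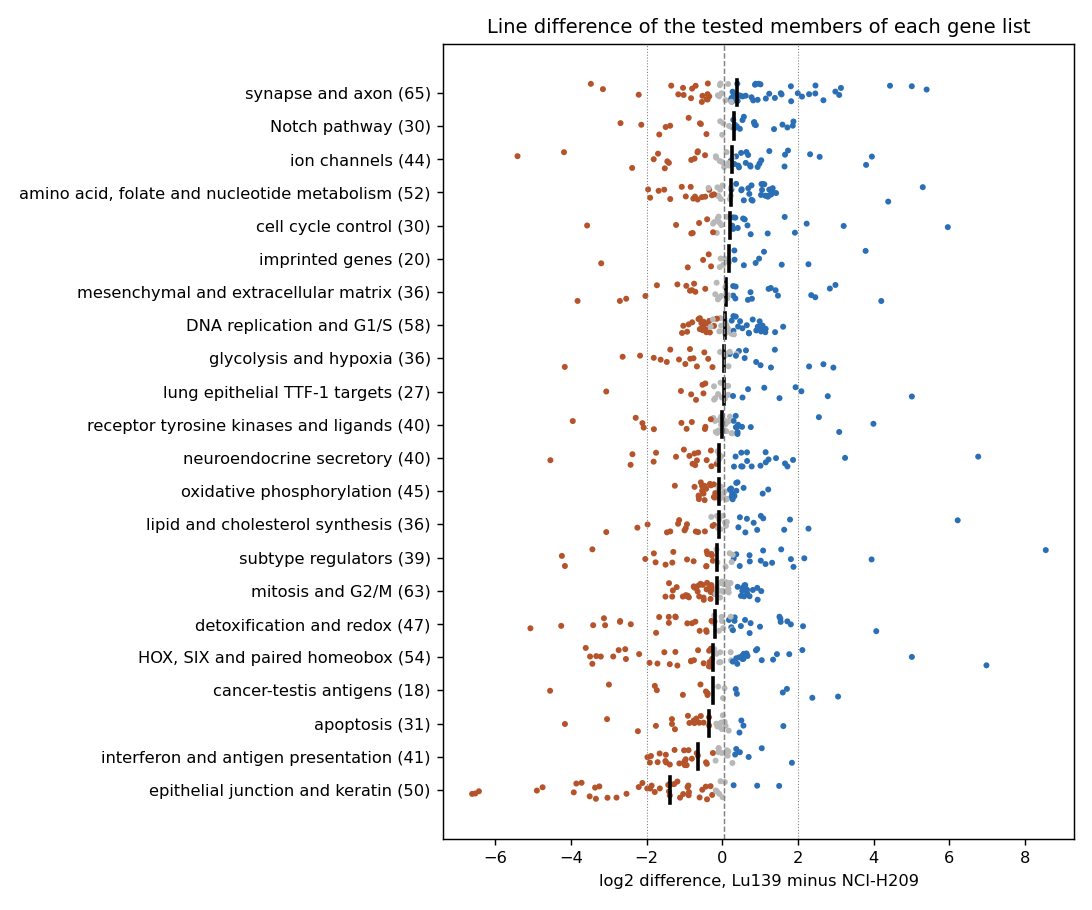
Each point is a tested member of a gene list, placed by its log2 difference, Lu139 minus NCI-H209, on the horizontal axis; blue and red points passed the limma test and grey ones did not. Black bars are list medians, the dashed line is the median of all genes (0.04) and the dotted lines are at 4-fold. The epithelial list lies furthest to the left, at -1.39, and the synapse and axon list furthest to the right, at 0.39.

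The mitosis and DNA replication lists held no large differences. None of 63 mitosis and G2/M genes and none of 58 DNA replication and G1/S genes was large, against 4.95% of all genes tested. Mitosis genes were 14 higher (22.2%) and 30 lower (47.6%), against 36.7% and 32.8% of all genes. Among those lower were the chromosomal passenger gene CDCA8 (-1.501), the kinesin KIF18A (-1.41) and anillin (ANLN, -1.32). The phosphatase CDC25A of the replication list was at 1.40. Replication genes were 21 higher (36.2%) and 20 lower (34.5%), near the shares over all genes. On the deposited values they were 12 higher and 34 lower of 58, and mitosis genes 4 higher and 48 lower of 63. Over all genes on that scale 2727 were higher and 7527 lower of 14547. MKI67, the Ki-67 proliferation marker, was at 606 and 503 against 596 and 470 (-0.06, limma adjusted p = 0.626).

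Of 30 cell cycle control genes tested, 15 were higher (50%) and 7 lower (23.3%), with 3 large higher (10%) and 1 large lower (3.33%), against 36.7%, 32.8%, 1.88% and 3.07% over all genes. On the deposited values 8 were higher and 14 lower. Their median absolute difference was 0.48, against 0.46 over all genes and 0.49 for the mitosis list. RB1 was read at 1707 and 1783 in NCI-H209 against 126 and 133 in Lu139 (-3.57, SE 0.103, limma adjusted p = 2.64e-08), on both probe sets. CCND2, cyclin D2, was at 14.5 and 16.7 against 1951 and 2308 (5.96), on all 4 probe sets. The CDK4 and CDK6 inhibitor CDKN2B was at 137 and 166 against 1600 and 1506 (3.21), and CDKN2A, its neighbour, at 1920 and 1973 against 6292 and 6019 (1.65). CDK6 was under the limit in NCI-H209, at 29.7 and 28.04, and at 150 and 174 in Lu139 (1.92), with 4 of its 7 probe sets in this direction. FBXW7, a ubiquitin ligase subunit that targets MYC and cyclin E, was higher in Lu139 (2.23). The array does not show whether the RB1 transcript of NCI-H209 encodes a working protein.

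After quantile normalization the metabolic lists had members called in both directions. On the deposited values calls lay mostly lower, as they did over all genes (2727 higher and 7527 lower of 14547). Calls were 2 higher and 33 lower of 45 for oxidative phosphorylation, 9 and 23 of 36 for glycolysis, and 8 and 24 of 36 for lipid genes. Detoxification had 9 and 26 of 47, and amino acid, folate and nucleotide genes 19 and 23 of 52. In glycolysis, ENO1, enolase, was at 2236 and 2195 in NCI-H209 against 10960 and 10960 in Lu139 (2.30), hexokinase HK2 at 189 and 135 against 1122 and 1117 (2.68), and the phosphofructokinase PFKM at 412 and 407 against 3033 and 3511 (2.94). PFKFB3, which makes the activator of phosphofructokinase, was at 543 and 500 against 12.4 and 10.5 (-4.16), and the hypoxia-inducible genes NDRG1 (-2.63) and ADM (-2.17) were lower as well. Of the 36 tested in that list, 12 were higher (33.3%) and 16 lower (44.4%), against 36.7% and 32.8% of all genes. In lipid metabolism, the fatty acid carrier FABP5 was at 18.4 and 17.98 against 3003 and 2496 (6.22), and the desaturase SCD5 was higher (2.28), while the lysophospholipid acyltransferase LPCAT1 (-3.07) and the cholesterol synthesis enzyme HMGCS1 (-2.24) were lower. Amino acid, folate and nucleotide genes were 26 higher (50%) and 16 lower (30.8%) of 52, against 36.7% and 32.8% of all genes. Large among them were BCAT1, which transaminates branched-chain amino acids, at 90.4 and 53.2 against 1897 and 1775 (4.39), and the neutral amino acid transporter SLC6A15, at 26.3 and 16.7 against 1484 and 1630 (5.30). The urea cycle enzymes ASS1 (-1.53) and ASL (-1.91) were lower. None of 45 oxidative phosphorylation genes was large, with 13 higher (28.9%) and 19 lower (42.2%), against 36.7% and 32.8% of all genes.

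Detoxification genes held more large lower members than all genes did, 8 of 47 (17.0% against 3.07%), with 2 large higher (4.26% against 1.88%). The glutathione transferase GSTP1 was at 7074 and 6834 in NCI-H209 against 170 and 210 in Lu139 (-5.07), and GSTO1 at 1221 and 1202 against 43.0 and 48.6 (-4.26). MGST2 (-2.70), aldehyde dehydrogenase ALDH1A1 (-2.42) and the metallothionein MT1E (-2.70) were also lower. AKR1C1, AKR1C2 and AKR1C3, aldo-keto reductases, were lower by -3.13, -3.10 and -3.41, but they are similar in sequence and their probe sets may read each other's transcripts. GSTM3 went the other way, at 276 and 229 against 4532 and 4523 (4.07), and MGST1 was higher (2.14).

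Antigen presentation, interferon and apoptosis genes leaned to NCI-H209. Of 41 interferon and antigen presentation genes tested, 24 were lower in Lu139 (58.5%) and 6 higher (14.6%), against 32.8% and 36.7% of all genes, with a median of -0.64 and none large. With no filter on low values the median was -0.26 over 58 genes, and on the deposited values 3 were large and lower. The class I gene HLA-B was at 1054 and 1265 against 262 and 298 (-1.98), and B2M, the shared light chain, at 7274 and 8809 against 2763 and 2868 (-1.502). The interferon-induced genes USP18 (-1.88), ISG20 (-1.91) and MX1 (-1.71) were lower, and the immunoproteasome subunit PSMB10 was higher (1.84). Of 31 apoptosis genes tested, 17 were lower (54.8%, against 32.8% of all genes) and 4 higher (12.9%, against 36.7%). The BH3-only gene BIK was at 2057 and 2614 against 114 and 110 (-4.16), CASP4 at 224 and 235 against 11.4 and 11.5 (-3.04), and CASP8 at 84.6 and 98.2 against 11.5 and 16.5 (-1.75). BCL2, which opposes BIK, was higher (1.62). In the Notch list, 16 of 30 were higher (53.3%, against 36.7%) and 9 lower (30%, against 32.8%), or 9 and 13 on the deposited values. The target HEY1 (-2.69) and the receptor NOTCH2 (-2.14) were large and lower and the ligand JAG1 was higher (1.86).

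Of 40 receptor tyrosine kinase and ligand genes tested, 12 were higher (30%) and 11 lower (27.5%), below the 36.7% and 32.8% over all genes, and on the deposited values 5 were higher and 20 lower. Single members were large. The insulin receptor INSR was at 1108 and 674 in NCI-H209 against 44.6 and 33.0 in Lu139 (-3.95), on all 5 probe sets, and the related IGF1R was at 118 and 101 against 771 and 698 (2.56), also on all 5. ROR1 (3.09) and FGF13 (3.997) were large and higher, and ERBB3 (-2.11), the KIT ligand KITLG (-2.08) and the GDNF family receptor GFRA3 (-2.29) large and lower.

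Shorter lists held a few large genes each. The shares below stand against 36.7% higher and 32.8% lower over all genes. Among 20 imprinted genes tested, 9 were higher (45%) and 5 lower (25%). The retrotransposon-derived PEG10 (2.28) and the neuronatin gene were large and higher and PHLDA2 (-3.20) large and lower. Among 18 cancer-testis antigen genes, normally expressed in germ cells, 6 were higher (33.3%) and 9 lower (50%), with TEX15 (3.06) and DDX43 (2.38) against MAGEA4 (-2.99) and MAGEA11 (-4.55). Among 27 lung epithelial TTF-1 target genes, 9 were higher (33.3%) and 7 lower (25.9%). GATA6, a lung and gut factor of that list, was at 9.06 and 7.999 against 190 and 151 (2.79), and LMO3 and LPCAT1, described above, also belong to it.

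Large genes were also ranked by the smaller of their pair differences, which differs from an order by the mean difference printed here. The 15 highest in Lu139 by that rank that are not yet described were CEP15 (6.29), the centrin gene CETN3 (5.92), ZNF738 (5.92), TUSC1 (5.53), the mitochondrial chaperone TRAP1 (5.57), SESN3 (5.10) and PDCD6P1 (5.22), a pseudogene that gave -3.28 when only probe sets designed to be unique to 1 gene were used. Those of the 15 lowest were WDR72 (-6.93), the selenium carrier SELENOP (-6.89), EFR3A (-6.62), AGR3 (-6.18), the Raf kinase inhibitor protein gene PEBP1 (-6.16), QPCT (-5.92), moesin (MSN, -5.91), galectin 3 (LGALS3, -5.80), the folate hydrolase GGH (-5.72), CRIP1 (-5.56), ZNF677 (-5.56) and FAM3B (-5.36). SELENOP was at 3221 and 2645 in NCI-H209 against 5.59 and 6.68 in Lu139. MSN and LGALS3 were each lower on 1 of 2 probe sets. Over all 720 large genes, 450 had more than 1 probe set, and for 358 of these every probe set gave the same direction.

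Genes read in 1 line and not in the other were those above the expression limit on both arrays of that line, below it on both arrays of the other, and at least 4-fold apart in both pairs. There were 137 such genes in Lu139 (0.693% of 19775 genes with a value) and 194 in NCI-H209 (0.981%). MYC, PAX3, GAL, FABP5, CCND2, GAP43 and the coactivator gene CREBBP were among the first, and EHF, KRT7, CEACAM5, GRHL2, SELENOP and WDR72 among the second.

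Some large genes were neighbours on a chromosome, in the order of a RefSeq gene table. The stretches described here were chosen after their values were seen. Their counts stand against 36.7% higher and 32.8% lower over all genes. On chromosome 5, the run of 13 genes from CETN3 to SLF1 had 9 genes above the limit in Lu139 alone and none in NCI-H209 alone. Of the 8 tested, 7 were higher in Lu139, namely CETN3 (5.92), MBLAC2 (3.997), POLR3G (3.57), LYSMD3 (3.26), ADGRV1 (1.98), ARRDC3 (4.78) and SLF1 (4.04), and POU5F2 was at 0.04. On chromosome 16, TRAP1 (5.57) and its neighbour CREBBP (5.01), read at 7.61 and 8.08 in NCI-H209 against 840 and 834 in Lu139, differed far more than DNASE1 (0.44) and ADCY9 (0.89) beside them. In the HOXD cluster on chromosome 2, 9 of 11 tested genes were lower in Lu139 and 2 were higher, HOXD4 (2.12) and HOXD9 (0.40). Around MYC on chromosome 8, its nearest neighbours CASC11 (0.08) and PVT1 (0.12) were too dim to test. From TRIB1 to CYRIB 7 genes were tested, 3 of them higher and 3 lower in Lu139. The higher ones were MYC, TRIB1 (1.70) and POU5F1B (0.38). The lower ones were LRATD2 (-0.308), GSDMC (-0.285) and CYRIB (-0.459). Over 14291 windows of 10 neighbouring tested genes, the first and 99th percentile of the window medians were -1.16 and 1.04, and chromosome medians ran from -0.34 for chromosome 13 to 0.36 for chromosome 20. The window from TMEM161B to SLF1 had a median of 3.415, and that from HOXD11 to HOXD1 one of -2.467.

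**Figure D5:**
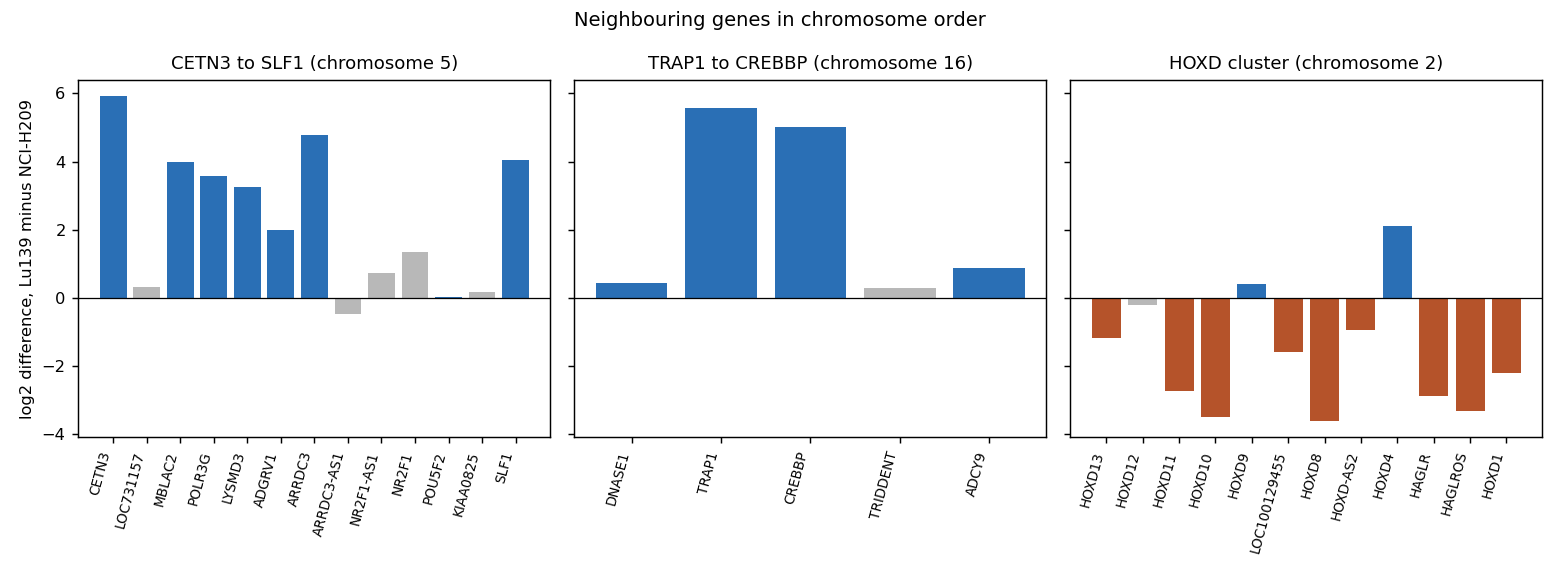
Bars give the log2 difference, Lu139 minus NCI-H209, of neighbouring genes in chromosome order for 3 stretches. Blue and red bars are genes tested that were higher and lower in Lu139, and grey bars were too dim to test. POU5F2 (0.04) was tested and did not pass the limma test. In the first panel CETN3 reaches 5.92 and SLF1, at the other end, 4.04. Between them lie genes tested and higher, such as ARRDC3 (4.78), and genes too dim to test.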

How the data were processed

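RNA of 4 samples was hybridised to Affymetrix arrays. The authors deposited linear intensities per probe set, made with Affymetrix Expression Console per the submitters' processing notes; version, algorithm and normalization: not given in the sources used here. In the deposited values 2416 probe sets were exactly equal between the arrays of NCI-H209 and 2206 between those of Lu139, against 0 between lines, so the lines may have been normalized apart and scaling matters.

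Of 54675 probe sets, 41091 had exactly 1 symbol, updated through a RefSeq table (GRCh38.p14). Values were quantile normalized over 4 arrays and taken as log2(intensity + 18.7), the 25th percentile. A gene took its probe set of highest mean, and 14545 of 19775 genes passed the limit, the 40th percentile. limma 3.58.1 (R 4.3.3) fitted line and siRNA with a variance trend, 1 residual and 7.31 prior degrees of freedom, two-sided, with Benjamini-Hochberg adjustment; SE is its standard error. The fit was tested on simulated data, where the share of false calls was well above the nominal one. Few genes were changed in that simulation, while 69.5% of genes tested were called here, so its share may not carry over to these calls.

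Members and lists were chosen with earlier results of these data known. The genes named were the 15 large genes furthest apart in each direction by the smaller of the pair differences, large members of each list, its furthest called members up to 6, and fixed subtype genes and markers. OLIG2, ID3, FOXA1, FOXA2, KRT8, KRT18, EPCAM, PKP3, CDH2, B2M, MKI67 and the neighbouring genes were added after their values were seen. Alternatives are given in the closing section. Figures were drawn with matplotlib 3.10.9.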

Additional observations from a re-analysis of the deposited data

Results flagged for a closer look

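Probe sets with no symbol or several symbols lie outside the gene values above, and 108 of them that exceeded the expression limit differed at least 4-fold between the lines in both pairs, 47 higher and 61 lower in Lu139. They were 2.01% of the 5370 such probe sets above the limit, against 4.11% of the 27376 probe sets with exactly 1 symbol. They were set apart because they carry signal that no comparison of genes used.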

How the results depend on the processing

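Counts of called genes moved by over 1.5 times on the deposited values without quantile normalization (2727 higher, 7527 lower); leaving out each array in turn, which also drops the siRNA term (4594 higher and 4203 lower without it on all 4 arrays), gave 3403 to 4535 higher and 3343 to 4235 lower, and 319 to 344 large higher and 511 to 521 large lower genes, where large then means called with a mean difference of at least 4-fold. Large genes numbered 166 higher and 297 lower with the mean of all probe sets, and 691 lower without quantile normalization. A threshold of 2-fold gave 1287 and 1542, and 8-fold 99 and 175. Genes read in 1 line alone numbered 66 in Lu139 and 99 in NCI-H209 at 8-fold, and 311 in NCI-H209 with the limit at the 60th percentile. Windows of 10 genes at least 2-fold from the median of all genes numbered 448, and windows of 20 genes 171. The cause of these shifts was not tested, except that thresholds change counts by construction. With unique probe sets, the cancer-testis list's median relative to all genes became 0.14, MYCN 0.11, PDCD6P1 -3.28 and VWF -0.428; with the mean of probe sets, REST became -0.18 and VWF -0.086. Of 202 named genes, 8 lost the call on the deposited values and 2 with median scaling, and none changed direction under either. The lists' and windows' summary counts, and the bound for calling a list median reversed, were set after the data were seen. A pair alone gives sizes with no test. The lines were paired by siRNA, a term of the model; no other pairing exists, since each group is 1 array and the labels carry no replicate numbers. Dim genes are limited by background, where folds are understated.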
